A study of Mus musculus with 2 samples.

Results

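The uroplakins are the 5 membrane proteins Upk1a, Upk1b, Upk2, Upk3a and Upk3b, which line the luminal surface of the bladder and ureter. Their transcripts were followed here in ureters of mouse embryos with a Cre-driven deletion of Fgfr2, which encodes an FGF receptor, and in controls without the Cre. The members were found by gene symbol on the array, and each had 1 probe, so that 5 of 30011 gene names and 5 of 39429 probes were described. A probe counted as measured in a channel where its spots stood well above background in a share larger than 0.5, and it was tested where this held for the mutant RNA on each array or for the control RNA on each array. By this rule 3 uroplakins (Upk1a, Upk1b and Upk3a) were tested among 20923 genes, and Upk2 and Upk3b were not.

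Ureters were dissected from NMRI embryos at stage E13.5, and RNA of a mutant pool and of a control pool was hybridised together on each of 2 two-colour Agilent arrays. The mutant genotype was Pax2-cre/+;Fgfr1(fl/?);Fgfr2(fl/fl), and the control genotype was Fgfr1(fl/?);Fgfr2(fl/?) without the Cre, where the question mark stands for a wild-type or a floxed allele. The pools of array 1 were female, and their mutant RNA was labelled with Cy5 and the control RNA with Cy3. The pools of array 2 were male, with the labels exchanged. The comparison asks which transcripts of the ureter differ between these genotypes, named by the study for the loss of Fgfr2. The mutant embryos also carried at least 1 floxed allele of Fgfr1 together with the Cre, and the controls had no Cre, so that the loss of Fgfr2, the loss of Fgfr1 alleles and the Cre itself cannot be told apart. Per the design text of the series, ureters with 1 and with 2 floxed alleles of Fgfr1 were combined for the mutant, in proportions that are not stated, and the size of the pools was not stated in the labels. The p-values therefore do not measure a spread between single embryos. They rest on 2 arrays and, in limma, on a variance largely borrowed from all genes tested (1 residual and 6.32 prior degrees of freedom). The sex of the pools and the dye cannot be told apart.

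Upk1a and Upk1b belong to the tetraspanins, proteins that cross the membrane repeatedly. Upk2 and Upk3a cross it a single time, and pair with Upk1a and Upk1b, respectively, before they leave the endoplasmic reticulum. In the mature urothelium the pairs form the rigid plaques of the apical membrane of umbrella cells, which help to make it a barrier to urine. Upk3b can replace Upk3a as the partner of Upk1b, and it is also known from the mesothelium that covers abdominal organs.

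The sequences on the array show what each measurement rested on. They are written 5′ to 3′ as the array design gives them, in lower case, with the letters of a polyadenylation signal (AATAAA) in capitals. The Upk3a probe is shown whole because its ends lie farther apart in the genome than its own length, and bases 31 to 60 are shown for the others.
Upk1a: gttggctggacacccAATAAAtactggctg
Upk1b: gacgactctcattcctgtctatgtttaatg
Upk2: ctcttaactgtacttaattctcacAATAAA
Upk3a: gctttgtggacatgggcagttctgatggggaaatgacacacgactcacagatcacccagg
Upk3b: tggctattaatgacagtcggctacctagcc

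On mm9, the build of the array design, the Upk3a probe aligned to the plus strand at chr15:84851819-84852720. Its 60 bases covered a span of 902 bases, 842 more than the probe itself, so that the probe crosses a splice junction. The other probes each lay in an unbroken stretch. The Upk1a probe was on the minus strand at chr7:31388111-31388170, the Upk1b probe on the minus strand at chr16:38773859-38773918 and the Upk2 probe on the minus strand at chr9:44260822-44260881. The Upk3b probe was on the plus strand at chr5:136520522-136520581. The letters AATAAA occurred in the Upk1a probe from base 46 and in the Upk2 probe from base 55, and in no other uroplakin probe. The GC content was 51.7% for Upk1a, 53.3% for Upk3a, 45.0% for Upk3b and 36.7% for both Upk1b and Upk2. The longest run of bases that probes of different uroplakin genes, Upk3bl included, had in common was 7, so the probes were distinct in sequence.

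Upk3a had the largest ratio of mutant over control among the uroplakins, and Upk1b, its partner, was also above 0 on both arrays. Upk1a differed in opposite directions on the 2 arrays, and Upk2 and Upk3b were near the background. No uroplakin passed an adjusted p of 0.05 in limma, against 6 of 20923 genes tested (0.0287%). Upk1b and Upk3a had an unadjusted p below 0.05, as did 4.04% of genes, and these 2 of the 3 tested members had a ratio above 0 on both arrays, as did 22.1% of genes. Upk3a was at least 1.5-fold higher on both arrays, which held for 0.296% of genes. In RNA of whole ureters, fewer cells of a type and less RNA per cell cannot be told apart.

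Upk3a has a longer cytoplasmic tail than the tetraspanin uroplakins. On array 1 the signals of its 4 spots, as spot mean minus local background in scanner units, ran from 425.72 through a median of 452.4 to 465.44 in the mutant channel. In the control channel they ran from 97.9 through 100.24 to 110.27. On array 2, where the dyes were exchanged, its 3 usable spots ran from 393.79 through 394.12 to 399.14 in the mutant and from 156.29 through 163.5 to 164.14 in the control channel. Every usable mutant spot was brighter than every control spot on its array, in either dye. The spots of an array repeat the same 2 pools, and these signals precede dye normalisation, here and for the probes below. How many of all probes separate in this way was not counted. After normalisation, the Upk3a level was 8.98 in the mutant and 7.52 in the control on array 1, and 8.88 and 7.64 on array 2, on the log2 scale. The lowest mutant level thus lay 1.24 log2 units above the highest control level.

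The Upk3a ratio was 1.45 on array 1 and 1.24 on array 2 (log2 mutant over control), or 2.74-fold and 2.35-fold. Its mean of 1.35 ± 0.15 (SD, n = 2 arrays) was a 2.54-fold difference, with a standard error of 0.152 in limma and a 95% interval from 0.99 to 1.70. The unadjusted p was 3.72e-05, and the adjusted p of 0.0708 missed the threshold of 0.05. Among 20923 tested genes the mean of Upk3a ranked 13 from the top, at rank 20 on array 1 and 102 on array 2. Its ratio ran from 1.40 to 1.504 over the spots of array 1 and from 1.22 to 1.26 over those of array 2, a smaller spread than the distance between the arrays. The remaining spot on array 2 carried an outlier flag and was left out. Its ratio was 1.57, and with it kept the mean was 1.39 and the adjusted p 0.0413. With a normexp offset of 16 the adjusted p was 0.034, and over only the probes well above background in both groups it was 0.0432, so that Upk3a lay on either side of the threshold according to the setting.

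**Figure D1:**
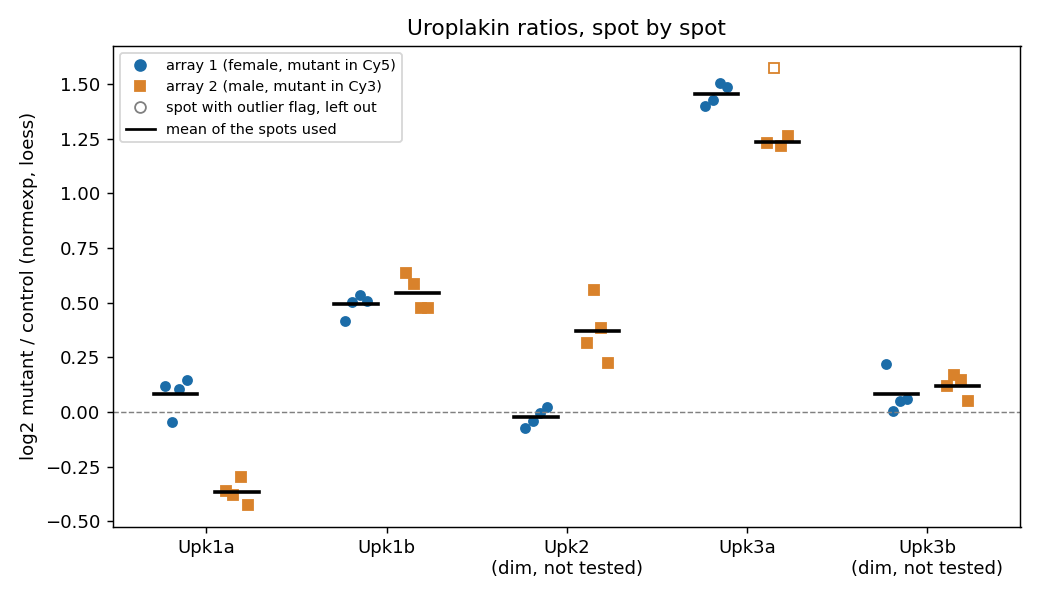
Log2 ratio of mutant over control for every spot of the 5 uroplakin probes, with circles for array 1, squares for array 2, open symbols for a spot with an outlier flag and bars for the mean of the spots used. Spots of Upk3a lie between 1.22 and 1.504 apart from the open symbol at 1.57, those of Upk1b between 0.42 and 0.63, and those of Upk1a fall on different sides of 0 on the 2 arrays for 7 of 8 spots.

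Upk1b, the tetraspanin that pairs with Upk3a and Upk3b, was well above background in all spots except 1 of 4 in the control channel of array 2. On array 1 its 4 spots ran from 59.477 through a median of 72.22 to 76.738 scanner units in the mutant and from 23.295 through 24.92 to 28.238 in the control channel. On array 2 they ran from 70.234 through 85.626 to 91.458 in the mutant and from 23.628 through 43.902 to 51.457 in the control. Mutant and control spots did not overlap on either array, which also held for Upk3b with its mean ratio of 0.10. The normalised log2 level of Upk1b was 7.09 in the mutant and 6.60 in the control on array 1, and 7.16 and 6.62 on array 2, with a gap of 0.47 between the lowest mutant and the highest control level.

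The Upk1b ratio was 0.49 on array 1 and 0.54 on array 2, with a mean of 0.52 ± 0.037 (SD, n = 2 arrays), which is 1.43-fold. The standard error in limma was 0.147, the 95% interval ran from 0.17 to 0.86, the unadjusted p was 0.00912 and the adjusted p 0.938. Its mean ranked 344 from the top, with 1.64% of tested genes above it. The value differed between settings. With a normexp offset of 16, where only the background offset differs, the Upk1b ratio was 0.74 or 1.67-fold (adjusted p = 0.549 in limma). From the processed signals of the scanner software, which differ in both background subtraction and dye normalisation, the Upk1b ratio was 1.26 or 2.39-fold (adjusted p = 0.269 in limma). In the authors' deposited table the signed fold of Upk1b was 2.55 on array 1 and 2.21 on array 2. The same table gave 3.90 and 2.99 for Upk3a. The sign of the Upk1b ratio was positive on both arrays in each of these sources.

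Upk1a, the tetraspanin that pairs with Upk2, was well above background in all spots of both channels on both arrays. On array 1 its spots ran from 582.84 through a median of 743.85 to 781.03 scanner units in the mutant and from 465.84 through 623.91 to 650.12 in the control channel. On array 2 they ran from 378.78 through 473.94 to 510.67 in the mutant and from 613.54 through 777 to 821.02 in the control. Every mutant spot lay below every control spot on array 2, while the spots overlapped on array 1. The normalised log2 level of Upk1a was 9.58 in the mutant and 9.50 in the control on array 1, and 9.08 and 9.45 on array 2.

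The Upk1a ratio was 0.08 on array 1 and -0.37 on array 2. Its mean of -0.14 ± 0.32 (SD, n = 2 arrays) was smaller than the spread between the arrays, with a 95% interval from -0.54 to 0.25, an unadjusted p of 0.425 and an adjusted p of 1 in limma. This interval holds 0. It overlaps the interval of Upk1b (0.17 to 0.86) and lies below that of Upk3a (0.99 to 1.70). After median centring instead of loess the ratio of Upk1a was below 0 on both arrays, at -0.055 and -0.41. In the authors' deposited table its signed fold was 1.11 on array 1 and -1.34 on array 2.

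Upk2, the partner of Upk1a, was at the limit of detection. On array 1 its spots ran from 11.927 through a median of 16.969 to 27.696 scanner units in the mutant and from 14.512 through 18.638 to 24 in the control channel, with 0 of 4 mutant spots and 2 of 4 control spots well above background. On array 2 the mutant spots ran from 32.789 through 40.981 to 55.289 and the control spots from 16.7 through 17.022 to 17.791, with 4 of 4 mutant spots and 0 of 4 control spots well above background. The 2 channels overlapped on array 1 and did not on array 2. The Upk2 ratio was -0.024 and 0.37, with a mean of 0.17 ± 0.28 (SD, n = 2 arrays) and no test. Its level was 6.44 in the mutant and 6.46 in the control on array 1, and 6.68 and 6.31 on array 2, on the log2 scale.

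Upk3b was also not well above background in the control channel of either array. Its spots ran from 18.286 through a median of 21 to 27.171 scanner units in the mutant and from 12.732 through 16.484 to 17.857 in the control channel on array 1. On array 2 they ran from 27.921 through 30.832 to 33.707 in the mutant and from 17.512 through 22.634 to 22.72 in the control. A single mutant spot of 4 was well above background on array 1 and all 4 on array 2. The Upk3b ratio was 0.084 and 0.12, with a mean of 0.10 ± 0.026 (SD, n = 2 arrays) and no test, and its level was 6.49 in the mutant and 6.40 in the control on array 1, and 6.51 and 6.39 on array 2.

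Because neither probe was well above background in the mutant channel of array 1 or in most control spots, no bound on the fold is given for Upk2 or Upk3b. The authors' deposited table listed signed folds of 1 and 2.02 for Upk2 and of 1 and 1.30 for Upk3b on arrays 1 and 2.

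**Figure D2:**
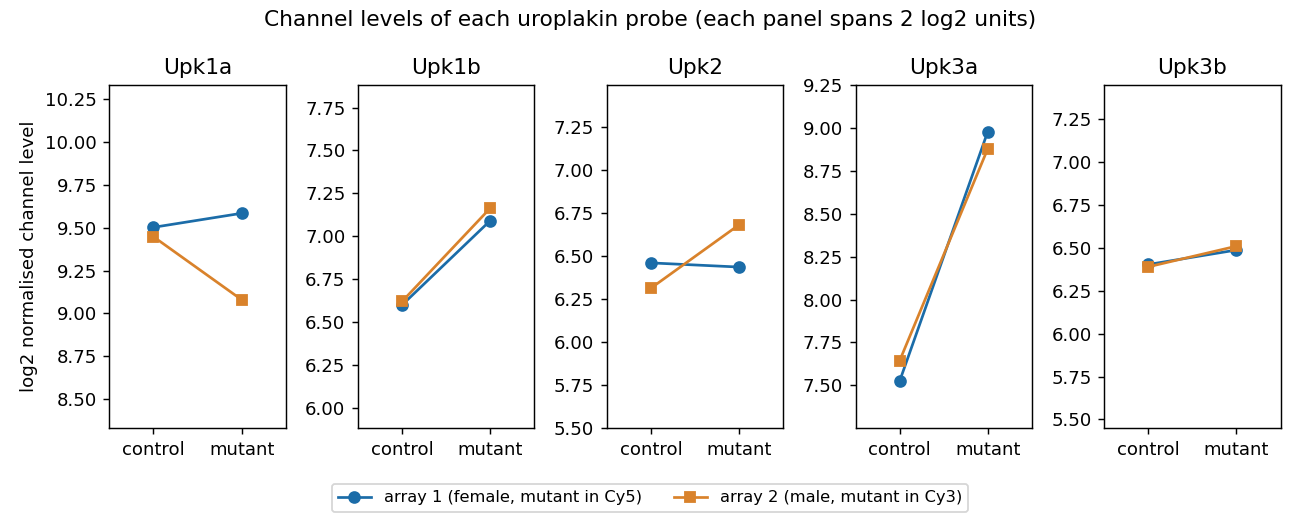
Normalised log2 level of each uroplakin probe in the control and mutant channel of array 1 (circles) and array 2 (squares), with lines that join the channels of an array. Each panel spans 2 log2 units, and levels are not to be compared between panels. The lines of Upk3a climb from 7.52 to 8.98 and from 7.64 to 8.88, while those of Upk1a diverge.

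The differences between members were taken within each array, which removes anything that shifts all ratios of an array alike. The ratio of Upk3a exceeded that of Upk1b by 0.96 on array 1 and 0.69 on array 2, a mean of 0.83 ± 0.19 (SD, n = 2 arrays). The size of this difference depended on the processing. From the processed signals the ratios lay closer, at 1.98 and 1.52 for Upk3a and 1.42 and 1.10 for Upk1b. In the processing described, the ratio of Upk3a exceeded that of Upk1a by 1.37 and 1.60, a mean of 1.49 ± 0.16. The ratio of Upk1b exceeded that of Upk1a by 0.41 and 0.91, a mean of 0.66 ± 0.35. All of these differences had the same sign on both arrays, and with 2 arrays a two-sided exact sign permutation cannot go below a p of 0.5. Upk3bl, an uroplakin-like gene next to Upk3b, was well above background in all spots of both of its overlapping probes. The brighter probe had ratios of 0.20 and 0.32 (0.26 ± 0.087, adjusted p = 1 in limma) and the other had 0.23 and 0.20.

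The genes whose ratios lay nearest to those of Upk3a were found by the Euclidean distance over the 2 arrays, in log2 units. They were Apela, which encodes a peptide hormone, at 0.237, the stefin gene Stfa2l1 at 0.238, the neurofilament gene Nefm at 0.250, the cathelicidin gene Camp at 0.330 and the stefin gene Stfa3 at 0.336. Nearest to Upk1b were B4galt2, a galactosyltransferase gene, at 0.0121, the retinol carrier Rbp4 at 0.0141, the apolipoprotein gene Apoc1 at 0.0345, Ncf4, a subunit gene of the phagocyte oxidase, at 0.0383 and the BMP family ligand Gdf7 at 0.0473. The distances were taken in the processing described only. The mean ratio of Upk1b was 0.52 there, 0.74 with an offset of 16 and 1.26 from the processed signals. With 2 arrays, such a distance says only that the pairs of ratios were similar. None of these genes passed the adjusted p in limma, and Stfa3 had the lowest at 0.0515.

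The other genes of uroplakin biology were read from lists, with the tested members counted by their sign on both arrays. Over all 20923 genes, 4627 were above 0 and 4483 below 0 on both arrays, and the median ratio was 0.0044. After median centring the same split was 3250 and 7974, with a median of -0.084. No member of the 4 lists that follow passed the adjusted p in limma.

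Of 15 regulators of urothelial differentiation, 2 were above 0 and 9 below 0 on both arrays, with a median ratio of -0.24. Grhl3, a Grainyhead factor required for terminal differentiation of umbrella cells, was an exception with ratios of 0.65 and 0.41 (0.53 ± 0.17, n = 2 arrays, unadjusted p = 0.0099, adjusted p = 0.941 in limma). Its log2 levels were 8.15 and 8.17 in the mutant and 7.50 and 7.76 in the control pools. Grhl2, the other Grainyhead factor of the list, went the opposite way. Its ratios were -0.62 and -0.35 (-0.48 ± 0.19, n = 2 arrays, unadjusted p = 0.0158 in limma). Fgfr2 itself was the other regulator above 0, with 0.27 and 0.06. Shh, the hedgehog ligand of the ureteric epithelium, had ratios of -0.63 and -0.45 (-0.54 ± 0.13, adjusted p = 0.922). Ehf, an epithelial ETS factor, had -0.12 and -1.03 (-0.57 ± 0.64, adjusted p = 1), a mean that lies within the spread of the arrays.

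Of 14 tested keratins and junction genes of the urothelial layers, 5 were above 0 and 6 below 0 on both arrays, with a median of -0.060. The tight junction genes Cldn3 and Cldn4 had mean ratios of -0.38 ± 0.026 and -0.41 ± 0.065, and Tjp3 of -0.39 ± 0.34 (n = 2 arrays, adjusted p = 1 in limma for each). Krt17 and Psca were too dim to be tested. Of 10 tested genes that move uroplakin vesicles, 2 were above 0 and 2 below 0, with a median of -0.025. After median centring 1 was above 0 and 5 below 0, with a median of -0.17. Rab27b, a small GTPase of the fusiform vesicles of umbrella cells, was at -0.16 ± 0.0046, the motor gene Myo5b at -0.31 ± 0.19 and Sytl2, an effector of Rab27, at 0.17 ± 0.087, each with an adjusted p of 1. Snx31, a sorting nexin that binds uroplakins, was too dim to be tested.

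Of 27 tested genes of the tetraspanin family and Upk3bl, 6 were above 0 and 4 below 0 on both arrays, with a median of 0.035 that became -0.10 after median centring. The members with the largest mean ratios of 1 sign were Cd82 at 0.41 ± 0.28, Tspan15 at -0.39 ± 0.053 and Cd53, a leukocyte tetraspanin, at 0.34 ± 0.16 (adjusted p = 1 for each in limma). Upk1b, at 0.52, was above all 27 of them and Upk1a, at -0.14, within their range from -0.39 to 0.41.

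The motif AACCGGTT, which Grainyhead factors recognise, was searched on both strands of 300-base promoter windows from RefSeq (GRCm38.p6). It was found in none of the windows of Upk1a, Upk3a, Upk3b and Upk3bl, and in 48 of 32851 promoters (0.146%). No windows were available for Upk1b and Upk2, so their promoters were not searched. The search says only that these letters are not in the uroplakin windows searched.

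The samples were also read with cell type markers. All 18 markers of the ureteric epithelium and all 10 of the ureteric mesenchyme were tested, that is, above background. The same held for all 7 nephron markers, all 15 erythroid genes on the array and all 14 neural genes. Detection alone therefore does not identify the tissue. The epithelial markers had a median ratio of -0.25, with 0 of 18 above 0 and 12 below 0 on both arrays, and their summed level was 109100 and 109900 in the mutant against 130600 and 133100 in the control pools on a linear scale. The ratios of Upk3a and Upk1b thus lay on the other side of 0 from the median of the epithelial list and from 12 of its 18 members. The mesenchyme list had a median of -0.28, with 2 above 0 and 7 below 0. Of these 28 epithelial and mesenchymal markers, none passed the adjusted p in limma.

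Markers of neighbouring tissues that can also hold uroplakin transcripts were given beside these values. Of 7 tested mesothelial markers, 4 were above 0 and none below 0 on both arrays, with a median of 0.15, and their summed level was 16240 and 13300 in the mutant against 14030 and 12920 in the control pools. Nkain4 was at 0.29 ± 0.039, Bnc1 at 0.19 ± 0.18 and Gpm6a at 0.15 ± 0.17. Opposite signs on the 2 arrays were seen for Rspo1 (-0.85 and 0.15), Wt1 (0.31 and -0.38) and Cldn15 (-0.13 and 1.41). Wt1 had the highest level of this list on array 1. Of 5 tested markers of the bladder and urogenital sinus, 1 was above 0 and 3 below 0, with a median of -0.18, and the summed level was 8076 and 6887 in the mutant against 8586 and 8313 in the control. Hoxa13 was at -0.40 ± 0.23, Hoxd13 at -0.32 ± 0.31 and Foxa1 at -0.18 ± 0.16.

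Markers of blood, muscle and nerve cells had list medians above 0. Of 13 tested leukocyte markers, 10 were above 0 and none below 0 on both arrays, with a median of 0.68, and S100a8 and S100a9 rose by 2.02 ± 0.064 and 2.21 ± 0.32 (n = 2 arrays, adjusted p = 0.014 for each in limma, and 0.156 after median centring). The summed level of the leukocyte list was 37510 and 70420 in the mutant against 30670 and 40680 in the control pools. Itgam had the highest levels of this list, and its ratios were -0.03 and 0.75. Of 15 erythroid genes, 12 were above 0 and none below 0, with a median of 0.72, and their summed level was 854200 and 818700 against 331000 and 616100. After median centring 7 erythroid genes were above 0 and 1 below 0. Of 9 tested skeletal muscle genes, 7 were above 0 and 1 below 0, with a median of 0.68 and summed levels of 4796 and 4783 against 2923 and 2470. Of 14 neural genes, 12 were above 0 and none below 0, with a median of 0.32 (7 above 0 and 2 below 0 after median centring) and sums of 74860 and 75590 against 66430 and 66880. The medians of all lists described kept their sign after median centring, with an offset of 16, from the processed signals and in the authors' deposited table, except that of the tetraspanins after median centring. The part of these other tissues in the uroplakin ratios was not tested.

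**Figure D3:**
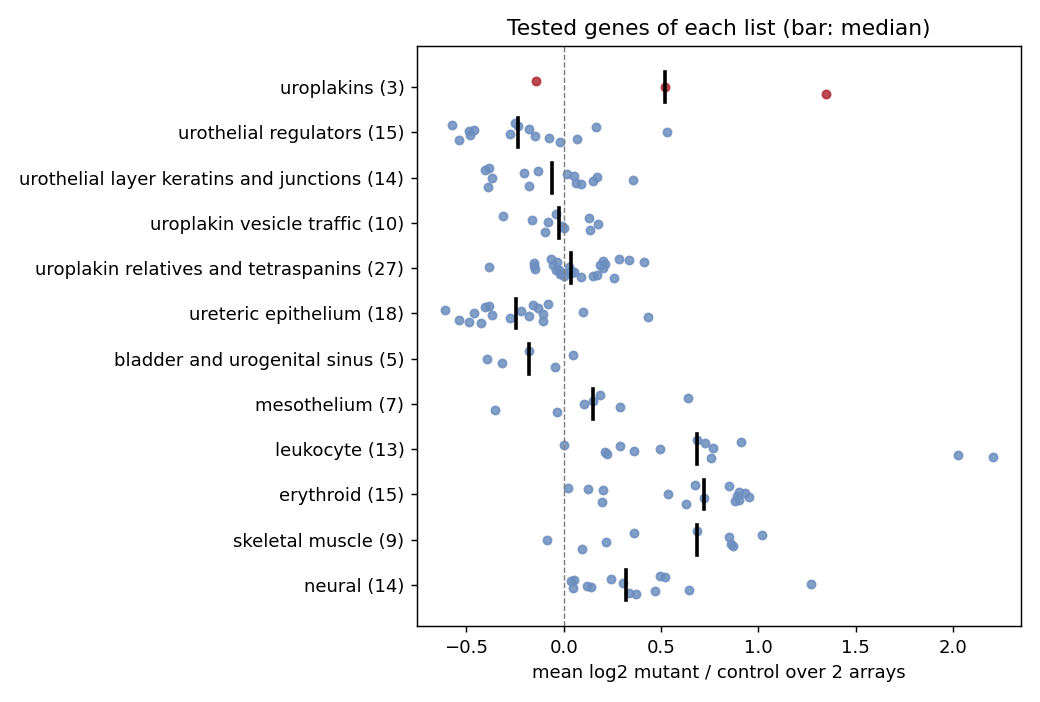
Mean log2 ratio of mutant over control for each tested gene (points) of 12 lists, with the number tested after each name and a bar at the list median. The 3 tested uroplakins, in red, span -0.14 to 1.35, the ureteric epithelium list lies mostly below 0 with a median of -0.25, and the leukocyte, erythroid and skeletal muscle lists have medians of 0.68, 0.72 and 0.68.

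Fgfr2, the deleted gene, was checked at its own probes. The 2 overlapping probes of Fgfr2 had ratios of 0.27 and 0.06, and of 0.08 and 0.09 (unadjusted p = 0.318 for the brighter in limma). Neither probe was below 0 on either array. Where the floxed segment lies relative to them was not known here, and a probe outside the deleted part checks nothing. The 3 probes of Fgfr1 had ratios of 0.27 and -0.44, 0.03 and 0.51, and 0.17 and -0.16. Between 67.87% and 77.04% of all probes were detected per channel, with 0 saturated spots, and the number of arrays limits the precision.

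**Figure D4:**
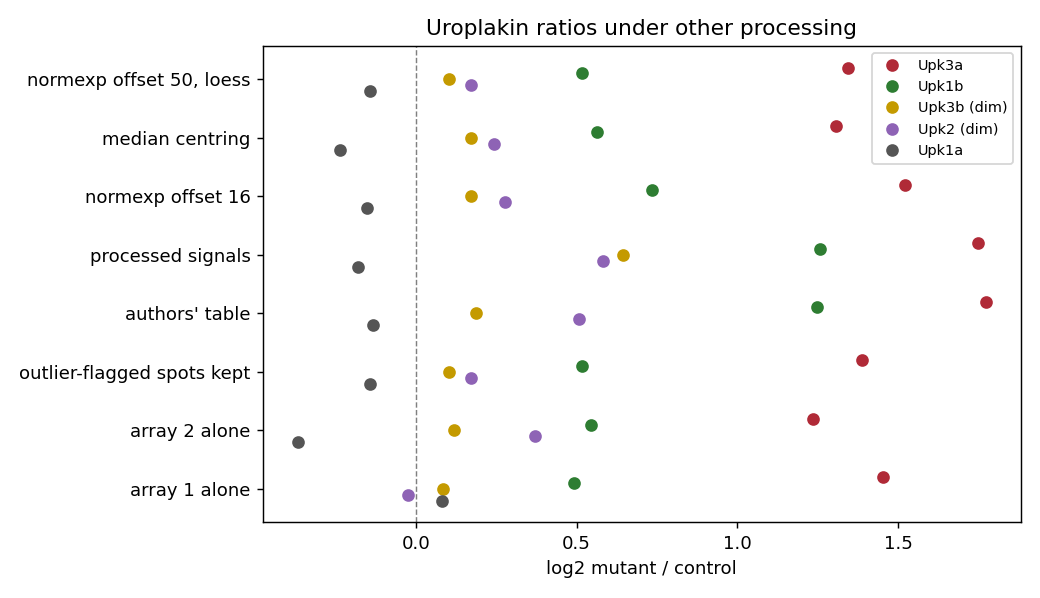
Log2 ratio of mutant over control for each uroplakin (colours) in the processing described, under other settings and in each array alone. Upk3a stays between 1.24 and 1.77 throughout, Upk1b runs from 0.49 to 1.26, and Upk1a lies at 0.08 in array 1 alone and below 0 in all other rows.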

How the data were processed

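The submitters' processing notes name Agilent Feature Extraction 10.7.3.1 as the software that read the scans. Per the file headers, each spot has a mean and a local background intensity, neither of them normalised, and a processed intensity that the software had background-subtracted and dye-normalised. In the authors' deposited table each probe has a score for each array, which is a linear fold with a sign. How it was made is not stated in the labels. Set against the processed signals its sign was mutant over control on both arrays (correlations of 0.973 and 0.991 over tested probes). Both columns had a median of 1, and how they were centred is unknown.

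In limma 3.58.1 (R 4.3.3), normexp with an offset of 50 corrected the background, and loess with a span of 0.3, giving control spots a weight of 0, normalised each array. Outlier-flagged spots were dropped (3.35% of spots on array 1, 3.05% on array 2), the rest averaged per probe, and the sign of array 2 turned. The brightest tested probe stood for its gene. Ratios were tested against 0 with lmFit and eBayes over 20923 genes, with Benjamini-Hochberg adjustment, on 1 residual and 6.32 prior degrees of freedom. Channel levels are log2 values after loess and Aquantile, and summed levels are linear. Both arrays were on 1 slide.

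The members, lists and tests were chosen with earlier results of these data known. All uroplakin probes and all probes of Fgfr1 and Fgfr2 are named. From the leukocyte list the called members are named. From the lists of uroplakin biology and the mesothelial and bladder lists, up to 3 members are named. These have the largest mean ratio of the same sign on both arrays. Other named members, such as Grhl2, Rspo1, Wt1, Cldn15 and Itgam, lie outside this rule. The epithelial, mesenchymal, erythroid, skeletal muscle and neural lists are only summarised. A smooth muscle list is not described, and a nephron list only by its detection. The 5 nearest genes of Upk3a and of Upk1b are named too. Gene names were updated through RefSeq accessions (GRCm38.p6), which matched 28328 probes. Alternatives covered normalisation, background, filter, probe summary, outlier flags, model and each array alone.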

Additional observations from a re-analysis of the deposited data

Results flagged for a closer look

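The ratio of Upk1a differed between the female array and the male array, at 0.08 and -0.37, a difference of 0.449. Of Fgfr1, 1 probe had ratios of 0.27 and -0.44, a difference of 0.711, and another had 0.17 and -0.16, a difference of 0.327. In each case the arrays lay on opposite sides of 0. With 1 array of each sex, none of these differences was tested, and the sex of the pools and the dye cannot be told apart.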

How the results depend on the processing

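The number of genes called in limma was 6 in the processing described. It was 13 with a normexp offset of 16, 11 from the processed signals, 12 when probes had to pass the background filter in both groups and 11 with outlier-flagged spots kept. It was 0 after median centring (853 genes at an unadjusted p under 0.05), 0 with all dim probes kept (1076) and 0 in a fit of separate channels (666). Upk3a kept a ratio above 0 in all 11 alternatives and passed the threshold in 3 of 9 with a test: the offset of 16 (1.52, adjusted p = 0.034), probes above background in both groups (1.35, adjusted p = 0.0432) and flagged spots kept (1.39, adjusted p = 0.0413). Its adjusted p otherwise ranged up to 1. Upk1b (adjusted p from 0.269 to 1) and Upk1a (0.86 to 1) passed in none of 9. For the untested Upk2, the ratio was 0.58 from the processed signals and 0.51 in the authors' deposited table. For Upk3b it was 0.17 after median centring, 0.17 with the offset of 16, 0.64 from the processed signals and 0.19 in the authors' deposited table. The cause of these shifts was not tested. With each array left out in turn, ratios ran from 1.24 to 1.45 for Upk3a, 0.49 to 0.54 for Upk1b, -0.37 to 0.08 for Upk1a, -0.024 to 0.37 for Upk2 and 0.084 to 0.12 for Upk3b. Signals near the background limit Upk2, Upk3b and, in part, Upk1b. No replicate block was fitted: each array already pairs a mutant with a control pool.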
